A study of Mus musculus with 12 samples.

Results

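Expression was examined for 10 protein-coding genes as 5 pairs, each made of an X-linked parent gene and an autosomal retrocopy known for expression in the testis: Pdha1 and Pdha2, Cetn2 and Cetn1, Rpl10 and Rpl10l, Utp14a and Utp14b, and Cstf2 and Cstf2t. The 10 genes were found by symbol among the 55471 rows of the deposited table of per-gene read counts, and all 10 had a numeric entry in every library. The RNA came from male mouse germ cells (strain C57Bl) that expressed the red fluorescent protein tdTomato and were sorted by flow cytometry into leptotene and zygotene cells (LZ), the first stages of meiotic prophase, and pachytene and diplotene cells (PD), the later ones. Each of the 4 groups had 3 libraries from independent experiments. Untreated LZ cells and LZ cells given 0.3 mM octyl-L2HG, a form of L-2-hydroxyglutarate that enters cells, were both cultured for 6 days. Untreated PD cells and PD cells given 24 mM oxamate, an inhibitor of lactate dehydrogenase stated to lower 2-hydroxyglutarate in PD cells to the LZ level, were both cultured for 48 hours. Culture time therefore differed between the stages and cannot be told apart from stage. The sources used here give neither the Cre line or promoter behind tdTomato nor the age of the mice. The 3 libraries of a group are called A, B and C after the code they share across groups.

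A retrocopy forms when a spliced mRNA is copied back into DNA and inserted elsewhere in the genome, so it usually lacks the introns of its parent. In male meiosis the X and Y chromosomes, which have no full partner to pair with, are silenced from the pachytene stage on, a process called meiotic sex chromosome inactivation. Autosomal copies of X-linked housekeeping genes are known to supply the same kind of protein while the parent is silent, and loss of Rpl10l or Utp14b in the mouse stops spermatogenesis. Pdha1 and Pdha2 encode the alpha subunit of pyruvate dehydrogenase, which turns pyruvate into acetyl-CoA in mitochondria. Cetn2 and Cetn1 encode centrins, calcium-binding proteins of centrioles. Rpl10 and Rpl10l encode a protein of the large ribosomal subunit, and Utp14a and Utp14b a factor that matures the RNA of the small subunit. Cstf2 and Cstf2t encode the RNA-binding subunit of the cleavage stimulation factor, which helps to place the poly(A) site.

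The retrocopy structure was visible in the annotation (GENCODE, mouse build GRCm38). Coding sequence was spread over 11 exons in Pdha1, 5 in Cetn2, 6 in Rpl10, 15 in Utp14a and 13 in Cstf2, and lay in 1 exon in each of the 5 copies. The aligned coding sequences were 76.3% identical between Pdha1 and Pdha2, 79.5% between Cetn2 and Cetn1, 84.7% between Rpl10 and Rpl10l, 78.3% between Utp14a and Utp14b, and 75.7% between Cstf2 and Cstf2t. Rpl10 and Rpl10l aligned over all 642 bases without a gap, and 89 of their 98 differing bases (90.8%) stood at the third position of a codon. The share at the third position was 72.4% in the Cetn pair, 65.0% in the Pdha pair, 60.4% in the Cstf2 pair and 47.5% in the Utp14 pair. The first 90 coding bases of 2 pairs are shown because they show how far parent and copy can be told apart by sequenced reads, with the bases that differ within the pair in capitals.
Rpl10: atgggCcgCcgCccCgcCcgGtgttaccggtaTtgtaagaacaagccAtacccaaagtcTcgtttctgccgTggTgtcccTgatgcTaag
Rpl10l: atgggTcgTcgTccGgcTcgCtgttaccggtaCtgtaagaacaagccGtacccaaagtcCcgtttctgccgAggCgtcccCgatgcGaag
Cstf2: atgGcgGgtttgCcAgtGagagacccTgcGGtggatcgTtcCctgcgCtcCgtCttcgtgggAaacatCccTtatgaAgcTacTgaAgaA
Cstf2t: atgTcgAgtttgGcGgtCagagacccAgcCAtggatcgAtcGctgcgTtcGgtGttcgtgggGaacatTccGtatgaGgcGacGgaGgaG
In these windows 13 bases differed between Rpl10 and Rpl10l and 21 between Cstf2 and Cstf2t. The windows span chrX:74271002-74271807 (plus strand, with introns) for Rpl10, chr12:66284268-66284357 (minus strand) for Rpl10l, chrX:134059365-134060675 (plus strand, with an intron) for Cstf2 and chr19:31083066-31083155 (plus strand) for Cstf2t. No parent shared a stretch of 50 exonic bases with its own copy in any of the 5 pairs, and the longest identical coding run was 30 bases, in the Utp14 pair. Sharing with other genes was larger for Rpl10: of the 2324 distinct 50-base stretches in all its annotated transcripts, 779 (33.5%) also occurred in 16 other genes. Of these, 691 occurred in the pseudogene Rpl10-ps3. All annotated transcripts were pooled, whichever the cells use, so the share of Rpl10 reads affected may be larger and was not measured. The share of stretches found in other genes was 7.6% for Rpl10l, shared with the predicted gene Gm14460, and at most 2.23% for the other members.

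How far parent and copy differed in the sequence around their start sites varied by pair, and Cetn1 had no promoter window. The promoter windows of Pdha1 and Pdha2 are shown because they were the furthest apart in G and C content, and those of Rpl10 and Rpl10l as a pair with closer values. Each window runs from 250 bases before to 50 bases after the start (RefSeq, build GRCm38.p6), 5′ to 3′ on the strand of the gene, with CpG dinucleotides in capitals.
Pdha1: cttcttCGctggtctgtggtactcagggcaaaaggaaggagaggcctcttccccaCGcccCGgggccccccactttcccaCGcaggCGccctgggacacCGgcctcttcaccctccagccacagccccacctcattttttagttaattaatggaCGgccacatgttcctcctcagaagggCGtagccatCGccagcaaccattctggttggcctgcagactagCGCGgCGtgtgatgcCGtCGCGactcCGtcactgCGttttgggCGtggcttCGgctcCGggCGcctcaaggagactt
Pdha2: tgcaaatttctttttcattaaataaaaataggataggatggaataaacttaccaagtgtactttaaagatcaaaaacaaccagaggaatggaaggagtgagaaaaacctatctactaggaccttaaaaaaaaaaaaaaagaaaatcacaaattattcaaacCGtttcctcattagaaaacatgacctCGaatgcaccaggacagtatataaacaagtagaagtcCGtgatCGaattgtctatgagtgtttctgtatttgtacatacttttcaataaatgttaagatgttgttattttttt
Rpl10: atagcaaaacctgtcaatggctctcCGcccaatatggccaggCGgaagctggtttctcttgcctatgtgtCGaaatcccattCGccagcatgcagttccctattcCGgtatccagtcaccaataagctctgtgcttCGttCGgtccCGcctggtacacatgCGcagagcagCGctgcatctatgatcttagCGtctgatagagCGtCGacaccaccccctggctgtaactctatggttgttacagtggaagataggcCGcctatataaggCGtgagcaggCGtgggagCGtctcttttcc
Rpl10l: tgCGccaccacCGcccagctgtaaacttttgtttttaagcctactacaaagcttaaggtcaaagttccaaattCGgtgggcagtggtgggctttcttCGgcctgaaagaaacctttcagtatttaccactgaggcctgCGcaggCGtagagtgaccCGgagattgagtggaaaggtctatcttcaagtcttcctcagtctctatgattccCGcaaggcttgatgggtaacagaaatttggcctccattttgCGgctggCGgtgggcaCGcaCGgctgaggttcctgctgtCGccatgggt
The windows lie at chrX:160138381-160138680 (minus strand), chr3:141212306-141212605 (minus strand), chrX:74270566-74270865 (plus strand) and chr12:66284352-66284651 (minus strand). Pdha1 held 21 CpG and 62.0% G and C, whereas Pdha2 held 4 CpG and 29.7%. The Rpl10 and Rpl10l windows held 17 and 13 CpG. Among the other members with a window, the count was 19 for Cetn2, 21 for Utp14a, 40 for Utp14b, 24 for Cstf2 and 26 for Cstf2t, beside a median of 7 over 32851 windows of the same length. The motifs below were searched on both strands. TATAAA occurred in the Pdha2 window only and in 13.6% of all windows. TAACNG was present in Rpl10l and Cstf2t (23.3% of all windows). CAACNG was present in Cetn2, Utp14a, Cstf2 and Cstf2t (35.0%). CCAAT was present in Cetn2, Rpl10, Utp14a and Cstf2t (37.4%). TGACGTCA was in none of them (1.79%).

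Library totals ran from 10532504 to 21275486 counts. The stage labels were checked with 6 markers each. The summed PD markers made up 1.161% to 1.183% of counts in untreated PD libraries and 0.0748% to 0.124% in untreated LZ libraries, and all 6 were higher in PD. The summed LZ markers made up 0.0654% to 0.0740% of counts in untreated LZ and 0.0102% to 0.0110% in untreated PD libraries. Of these, Dmc1, Meiob, Prdm9 and Stra8 were lower in PD, while Rec8 and Spo11 were higher. In untreated LZ library A the summed PD markers were at 0.124% against 0.0748% and 0.0783% in B and C, and that gap was the heat shock protein gene Hspa2 (18288 reads against 6918 and 7653), as the other 5 PD markers summed to 0.00926%, 0.00914% and 0.00789%. The 5 round spermatid markers, of the stage after meiosis, were all higher in PD: they summed to 0.0365% to 0.0426% in untreated PD and 0.000349% to 0.00137% in untreated LZ libraries, and to 0.0268% to 0.0317% with oxamate, where none was called. Their part in the stage and oxamate results was not tested. Of the 3 peritubular markers Fn1 fell from 2807 to 72.8 normalized counts, so that their sum was 0.0207% to 0.0242% in untreated LZ and at most 0.000597% in untreated PD libraries. Acta2, at 2.22 normalized counts in untreated LZ, had 1, 2 and 3 reads there and 8, 0 and 10 in untreated PD libraries A, B and C. The 5 Sertoli markers summed to at most 0.000748% in any library, and the spermatogonial, Leydig and leukocyte markers to at most 0.00187%, 0.00195% and 0.00163%. In RNA from a mixed population, fewer cells of a type and less RNA per cell cannot be told apart.

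Between untreated LZ and untreated PD cells, all 5 parents fell and 4 of the 5 copies rose, and the remaining copy, Utp14b, fell. A gene was called at an adjusted p below 0.05 in limma's test of log2(normalized count + 1), fitted over 17011 genes. Most genes differed by this rule: 50.8% of 16881 tested genes were higher in PD and 38.9% lower. Of the X-linked genes 75.5% were lower, so a fall of 5 parents out of 5 stands against a chromosome on which most genes fell. Of the autosomal genes 51.9% were higher and 37.6% lower, beside 4 and 1 of the 5 copies. The median log2 difference was 0.49 over all genes, -4.56 over X-linked genes and 0.57 over autosomal genes. The changes below are given without taking off these medians and are to be read beside them. Scaling by total counts moved the median of all genes to -0.08 and lowered every gene alike. Scaling moves both members of a pair alike, so it moved the ratio of copy to parent little: through the pseudocount of 1, the largest shift in the stage difference was in the Pdha pair, from 8.33 to 8.18 with total-count scaling.

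**Figure D1:**
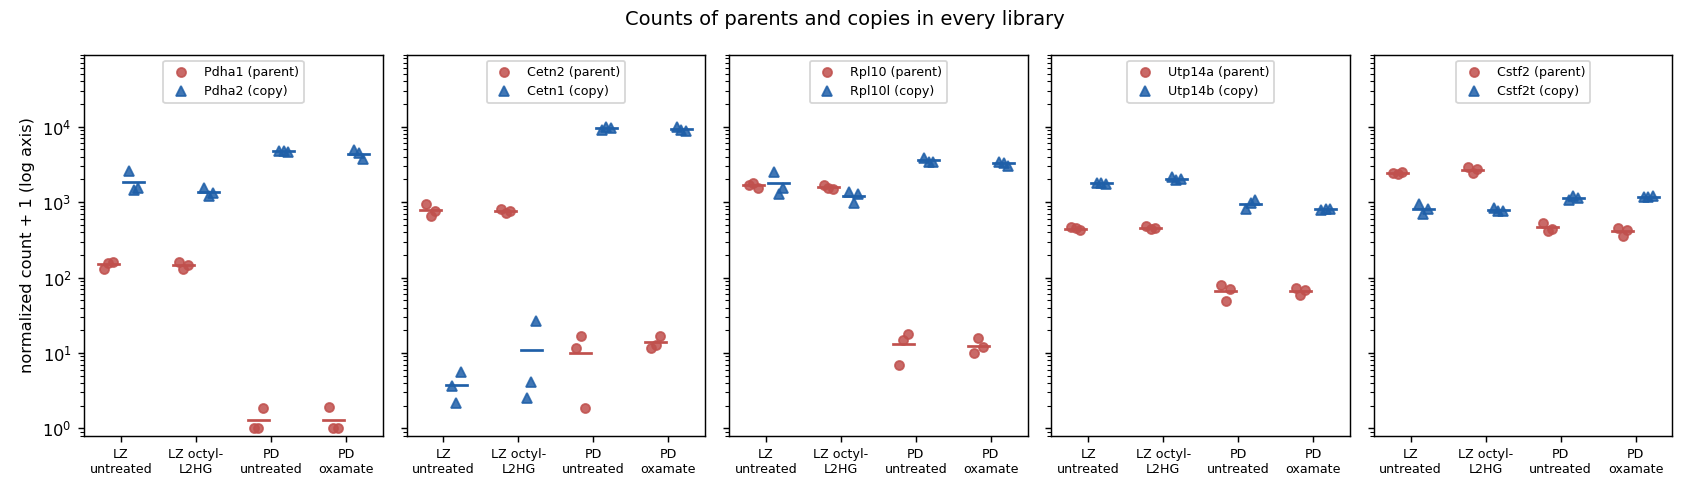
Normalized count plus 1 on a log axis for each parent (red circles) and copy (blue triangles) in the 3 libraries of each of the 4 groups, with short bars at the mean. Parents are lower in both PD groups in all 5 panels, Cetn1 goes from single counts in LZ to between 9010 and 9894 in untreated PD, and treated and untreated libraries of a stage lie close together.

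The Pdha pair showed a parent that was present in LZ and all but missing in PD. Pdha1 (chrX:160122209-160138413) had 130.4, 154.9 and 160.6 normalized counts in untreated LZ libraries A, B and C and 0, 0 and 0.848 in the PD ones. The groups were far apart, and the whole PD group held 1 read against 422 in LZ, a ratio of 427.6 after depth with a 95% counting interval from 76.3 to 16930. In the fit Pdha1 fell by 6.92 on the log2 scale (SE 0.34, adjusted p = 6.43e-11). An exonic stretch of 603 bases (16.1%) lies opposite Map3k15, a kinase gene that fell from 391.4 to 1.05 normalized counts, and the sources used here do not say whether counting used strand.

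Pdha2 (chr3:141210004-141212355) was already abundant in LZ. Its normalized counts were 2564, 1429 and 1549 in untreated LZ and 4814, 4720 and 4673 in PD. All PD libraries were above all LZ libraries, and LZ library A was the highest of its group. Pdha2 rose 2.56-fold, from 1847 ± 623 to 4736 ± 71.9 (SD, n = 3), a log2 difference of 1.41 (SE 0.18, adjusted p = 4.69e-06). Per kilobase of exon the copy made up 94.8% of the pair in LZ and at least 99.99% in each PD library, and the sum of both genes went from 825.3 to 2014 normalized counts per kb. The pair thus held more transcript in PD without its parent than in LZ with it.

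The Cetn pair switched from one gene to the other. Cetn2 (chrX:72913532-72918411) had 941.5, 647.7 and 750.1 normalized counts in untreated LZ and 10.48, 16.01 and 0.848 in PD, where library C held a single read. Every PD library was far below every LZ library, and Cetn2 fell by 6.76 on the log2 scale (SE 0.63, adjusted p = 9.84e-07), its mean being 85.6-fold lower. Cetn1 (chr18:9615524-9619478) had 2.61, 1.17 and 4.59 normalized counts in LZ, from 3, 1 and 4 reads, and 9010, 9894 and 9546 in PD. The means, 2.79 ± 1.71 and 9483 ± 446 (SD, n = 3), were 3399-fold apart, and the log2 difference was 11.39 (SE 0.73, adjusted p = 1.17e-07), larger than that of 99.9% of autosomal genes. Its share of the pair per kilobase went from 0.422% to 99.9%, and the sum of the pair from 475.8 to 6858 normalized counts per kb, 14.4-fold.

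In the Rpl10 pair both genes had like counts in untreated LZ. Per kilobase of exon the LZ means were 812.2 for the parent and 1726 for the copy. The level of Rpl10, and with it the share and sum of the pair, is uncertain because of the sequence it shares with other genes. Rpl10 (chrX:74270812-74273135) had 1687, 1793 and 1522 normalized counts in untreated LZ and 5.824, 13.72 and 16.96 in PD. The parent fell by 7.10 on the log2 scale (SE 0.28, adjusted p = 8e-12), its mean being 137-fold lower, with no overlap of the groups. Rpl10l (chr12:66283379-66284401) had 2499, 1277 and 1522 in LZ, where library A was again the highest, and 3832, 3420 and 3430 in PD. All PD values were above the LZ ones, and Rpl10l rose 2.02-fold, from 1766 ± 647 to 3561 ± 235 (SD, n = 3; log2 difference 1.07, SE 0.20, adjusted p = 0.000177). Its share per kilobase went from 66.8% to 99.8%. The sum of the pair differed less, at 2538 normalized counts per kb in LZ and 3487 in PD, 1.37-fold, a difference that was gone with total-count scaling (0.994-fold, with overlap of the groups).

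The Utp14 pair was the exception, as both of its genes fell. Utp14a (chrX:48256862-48282453) had 459.9, 449.4 and 423.2 normalized counts in untreated LZ and 79.2, 48.0 and 69.5 in PD. It fell by 2.77 on the log2 scale (SE 0.17, adjusted p = 7.91e-10), 6.77-fold, and thus kept more of its LZ level than Pdha1, Cetn2 and Rpl10 did. Utp14b (chr1:78658038-78671512) had 1801, 1774 and 1746 in LZ and 817.7, 967.4 and 1055 in PD. The groups did not overlap, and the copy fell by 0.91 on the log2 scale (SE 0.09, adjusted p = 2.11e-07), 1.87-fold. The copy was the larger part of the pair at both stages, 68.2% per kilobase in LZ and 88.5% in PD, but the sum of the pair dropped from 338.5 to 139.2 normalized counts per kb. Utp14b shares 244 exonic bases (3.18%) on the same strand with Acsl3, an acyl-CoA synthetase gene in whose span it lies, and Acsl3 fell 2.66-fold, from 2058 to 772.3 normalized counts (adjusted p = 1.93e-09). Whether reads from the shared bases moved with it was not tested.

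The Cstf2 pair changed its order. Cstf2 (chrX:134059187-134086819) had 2405, 2349 and 2486 normalized counts in untreated LZ and 525.3, 417.4 and 434.9 in PD. It fell by 2.40 on the log2 scale (SE 0.12, adjusted p = 5.81e-11), 5.26-fold, with no overlap. Cstf2t (chr19:31082837-31087069) had 949.3, 702.9 and 806.3 in LZ and 1080, 1220 and 1139 in PD. The PD libraries were all higher, and Cstf2t rose 1.399-fold by the test (log2 difference 0.49, SE 0.11, adjusted p = 0.00048). That difference equals the median of all genes, and with total-count scaling it was 0.01 (adjusted p = 0.881). Per kilobase the copy was 42.3% of the pair in LZ and 84.4% in PD, and the sum went from 456.5 to 320.8 normalized counts per kb. By counts, without division by length, the copy was 23.0% to 28.3% in untreated LZ and 67.3% to 74.5% in untreated PD libraries. Prkg1, a kinase gene on the opposite strand within whose span Cstf2t lies, went from 1.26 to 209.9 normalized counts.

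The 5 parents fell to different extents. The falls of Rpl10, Pdha1 and Cetn2 were deeper than those of most X-linked genes, as only 14.8%, 16.6% and 18.3% of 601 tested X-linked genes had a smaller log2 difference. With the pseudocount, the LZ level of a gene limits how deep its fall can be, so this order depends on that level too. Utp14a and Cstf2 fell less than the typical X-linked gene and stood above 66.9% and 68.4% of them. Among the copies, Pdha2, Rpl10l, Cstf2t and Utp14b stood above 59.3%, 56%, 49% and 30.7% of autosomal genes, near the middle of the autosomes apart from Utp14b. The log2 ratio of copy to parent was higher in every PD than in every LZ library for all 5 pairs. The same held for each of the 10 other pairs described below. The medians of X-linked and autosomal genes (-4.56 and 0.57) also lie apart in that direction, so it is not particular to these pairs. The ratio differed by 18.15 in the Cetn pair (SE 1.05), 8.33 in the Pdha pair (SE 0.47), 8.17 in the Rpl10 pair (SE 0.57), 2.89 in the Cstf2 pair (SE 0.19) and 1.86 in the Utp14 pair (SE 0.28). Each of the 5 gave p = 0.1 in a two-sided exact permutation test, the smallest that 3 against 3 libraries allow, and 0.25 after adjustment over 15 comparisons. In the Utp14 pair the higher ratio came with a lower copy, since the parent fell further.

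**Figure D2:**
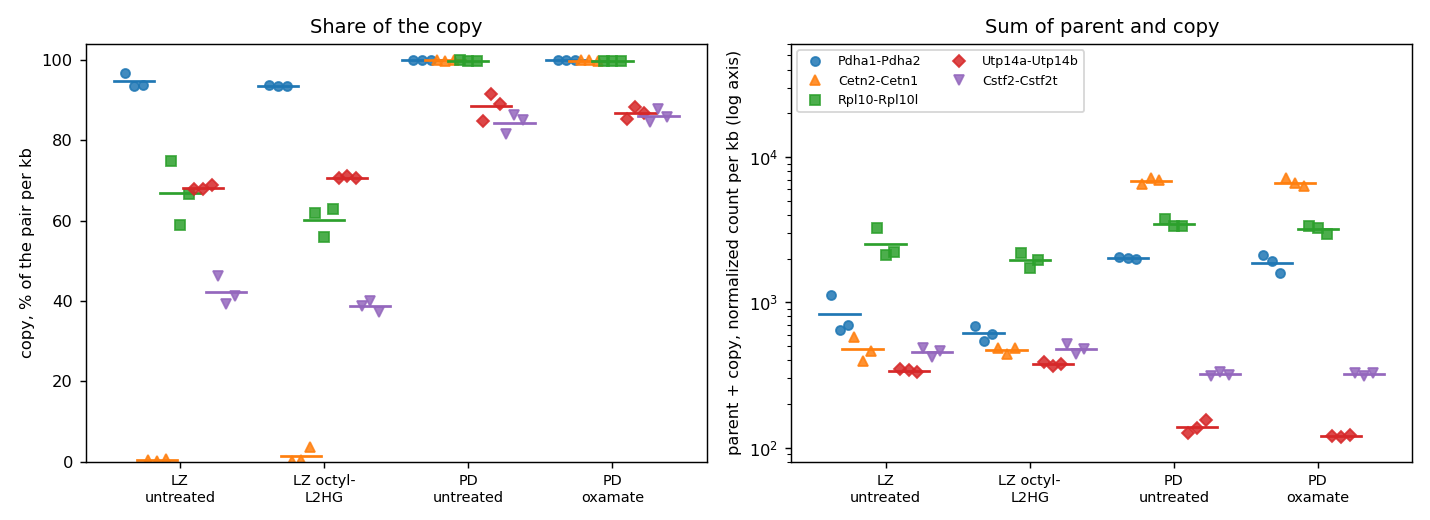
Left, the copy as a percentage of parent plus copy per kilobase of exon. Right, the sum of both genes in normalized counts per kb on a log axis. Points are the 3 libraries of each group and bars their means. The copy's share per kilobase is above 80% in every PD library of every pair (by counts it is as low as 67.3%, in the Cstf2 pair). The sum is higher in PD for the Pdha, Cetn and Rpl10 pairs and lower for the Utp14 and Cstf2 pairs (with total-count scaling the Rpl10 sums overlap, at 0.994-fold).

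As a comparison, 10 other X-linked genes with an autosomal copy were set beside the 5 pairs. All 10 of these parents fell (median log2 difference -6.30), as did the 5 examined here (median -6.76), beside 75.5% of X-linked genes. The log2 difference was -8.26 for the RNA helicase gene Ddx3x, -7.85 for Fam50a, -7.80 for the splicing gene Zrsr2 and -6.85 for the ribosomal protein gene Rpl39. Of the copies of these 10 parents 7 rose, 2 fell and 1 was not called, beside 51.9% of autosomal genes higher and 37.6% lower. The glycerol kinase gene Gk2 rose by 10.59, Fam50b by 10.42, Prps1l1, for an enzyme of nucleotide synthesis, by 9.78, and the glycolytic gene Pgk2 by 9.77. Each of these 4 copies was near 0 in LZ, with 2.71 to 10.1 normalized counts, like Cetn1. The 2 copies that fell were Rbmxl2 (log2 difference -1.49) and Zrsr1 (-0.88), and Rps4l stayed uncalled with a difference of 0.01. Pairs in which the copy was already expressed in LZ were therefore found in both sets, and so were copies that fell with their parent.

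**Figure D3:**
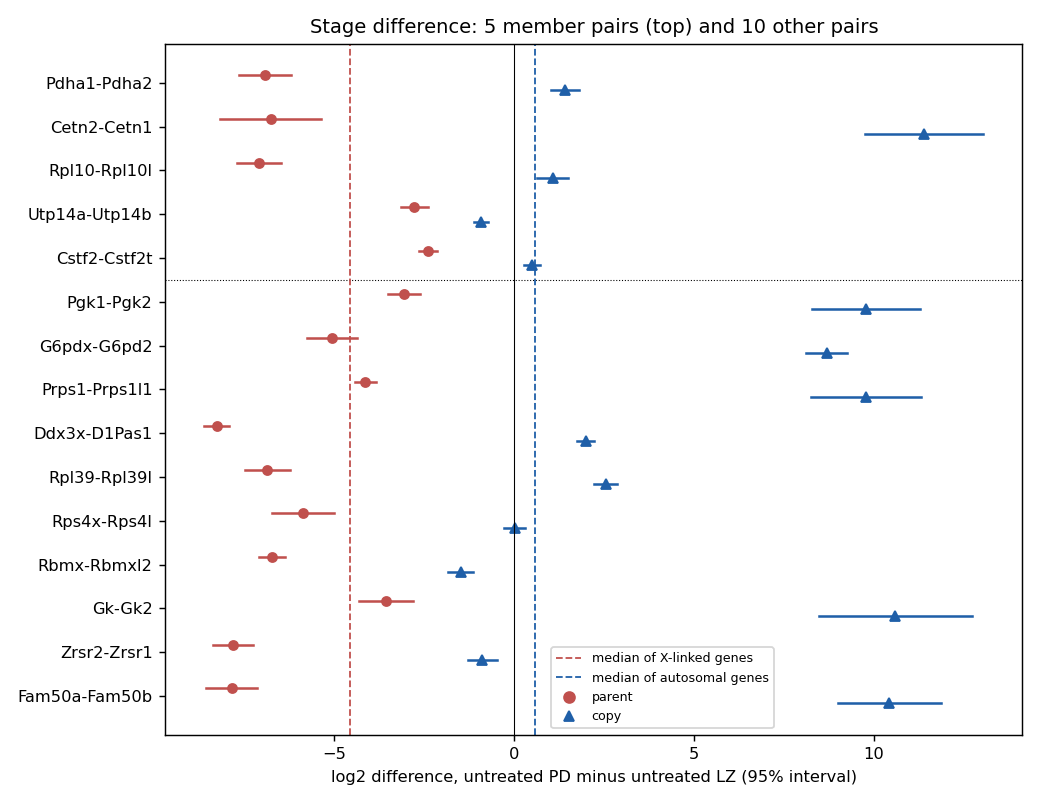
Log2 difference between untreated PD and untreated LZ cells with 95% intervals for parents (red circles) and copies (blue triangles) of the 5 pairs above the dotted line and 10 other pairs below it, with dashed lines at the medians of X-linked (-4.56) and autosomal (0.57) genes. Parents lie left of 0 in all 15 pairs, and copies range from -1.49 to 11.39.

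The genes for proteins that work with each pair did not follow one direction. Their counts stand beside 50.8% of all tested genes higher in PD and 38.9% lower. Of 12 tested genes of the pyruvate dehydrogenase complex, its regulators and the pyruvate carrier, 4 rose and 6 fell (median log2 difference -0.47, beside 0.49 over all genes). The kinase gene Pdk2 rose from 22.4 to 4544 normalized counts while Pdk1 fell from 423.8 to 1.72, both encoding kinases that switch the alpha subunit off. Pdpr, a regulator of the phosphatase, fell by 5.23 and Dlat, the acetyltransferase core, rose by 2.31 on the log2 scale. Around the centrins 5 of 8 genes rose and 2 fell (median 0.69): Cetn4 rose from 152.8 to 5267 normalized counts and Cetn3 from 859.5 to 2428. Eny2, a partner of centrin in mRNA export, fell by 2.46 on the log2 scale.

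For the ribosomal pairs, the genes of 60S maturation around Rpl10 gave 2 of 8 higher and 5 lower (median -0.66). Efl1 and Sbds, which release the factor eIF6 from the large subunit, rose by 2.42 and 2.36 on the log2 scale, while Nmd3, the export adaptor that Rpl10 helps to release, fell by 1.75 and Dnajc21 by 1.04. The small-subunit processome, in which Utp14 works, was the list with the most genes lower: 16 of 20 fell and 2 rose (median -1.35). Over all tested genes 38.9% were lower and 50.8% higher. In this list Utp6 was at -3.78, Wdr43 at -3.66, Utp15 at -2.87 and Wdr75 at -2.75. Both members of the Utp14 pair fell as those 16 of the 20 did. Of 17 genes for cleavage and polyadenylation 6 rose and 7 fell (median -0.16). The testis poly(A) polymerase gene Papolb, itself a retrocopy, rose from 264.8 to 19220 normalized counts. Cstf1, a partner in the same factor as Cstf2, rose by 2.12, and Cpsf6 and Cpsf7 fell by 3.62 and 2.06 on the log2 scale.

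In the fit of all 12 libraries without the replicate block, neither treatment moved any of the tested members past the threshold. With octyl-L2HG 0 of 9 tested members were called, beside 0.307% of all 13039 tested genes. With oxamate 0 of 9 were called, beside 7.79% of 15233 genes. Tested against each other, the 2 treatment changes gave 0 of 8 members called, beside 1.21% of 11261 genes. The fit of the PD libraries alone with the replicate block called 2 members with oxamate, Utp14b (adjusted p = 0.00537) and Rpl10l (adjusted p = 0.0259). That fit called 3018 genes higher and 2486 lower of 16401 tested, a larger share than the 7.79% above. The like fit of the LZ libraries called 2 with octyl-L2HG, Rpl10l (adjusted p = 0.00512) and Pdha2 (adjusted p = 0.0112), where the pairing by code is uncertain. It called 224 genes higher and 232 lower of 13715 tested, a larger share than the 0.307% above. At an unadjusted p below 0.05 there were 3 members with octyl-L2HG (Pdha2, Rpl10l and Utp14b) and 1 each with oxamate and in the test between treatments (Utp14b in both), beside 13%, 21.1% and 16.9% of all genes tested. Each treatment comparison shares its untreated libraries with the stage comparison.

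Octyl-L2HG left the 5 parents near their untreated levels. With the treatment, Pdha1 had 160.2, 128.9 and 145.8 normalized counts, Cetn2 802.4, 724.9 and 771.7, and Rpl10 1706, 1558 and 1496. Utp14a had 474.3, 433.2 and 458.1, and Cstf2 2898, 2440 and 2759. All 5 overlapped with the untreated libraries, and their log2 differences lay between -0.07 (Rpl10) and 0.16 (Cstf2, 95% interval -0.09 to 0.41). The intervals were wide for Cetn2 (-1.41 to 1.39) and Pdha1 (-0.76 to 0.69), since the fit takes the spread from all 4 groups, including PD groups with few reads.

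Among the copies, Rpl10l had 1377, 981.6 and 1269 normalized counts with octyl-L2HG and Pdha2 had 1515, 1192 and 1334. The means were below the untreated ones, but the groups overlapped. Each treated library was below the untreated library of its code for both genes. The log2 difference was -0.50 for Rpl10l (SE 0.20, adjusted p = 0.303) and -0.41 for Pdha2 (SE 0.18, adjusted p = 0.354). The authors' deposited table lists -0.55 with an adjusted p of 0.0244 for Rpl10l and -0.46 with 0.0875 for Pdha2. Both differences moved with untreated LZ library A: without it they were -0.22 (adjusted p = 0.517) and -0.15 (adjusted p = 0.664). Library A was also the highest LZ library in Hspa2, and the part of that in the result was not tested. Cstf2t had 843.2, 750.2 and 758.3 (log2 difference -0.06, 95% interval -0.28 to 0.17). Utp14b had 2121, 1979 and 2044, all above the untreated libraries, with a log2 difference of 0.21 (SE 0.09, adjusted p = 0.351). The ratio of Utp14b to Utp14a was also higher in all 3 treated libraries, by 0.17 on the log2 scale (SE 0.03, exact permutation p = 0.1, adjusted p = 0.25). Cetn1 had 1.54, 3.17 and 25.5, and with a mean under the minimum of 10 over both LZ groups it was not tested. Library C held 21 of its 26 treated reads, and the copies Gk2, Prps1l1 and Fam50b were also highest in that library of the group.

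With oxamate Pdha1, Cetn2 and Rpl10 stayed near 0, and Utp14a and Cstf2 stayed near their untreated PD levels. Pdha1 had 0.897, 0 and 0 normalized counts, from 1 read, and was not tested. Cetn2 had 10.8, 11.8 and 15.7 (log2 difference 0.94, 95% interval -0.47 to 2.34), a wide interval that rests on untreated library C with its single read: without it the difference was -0.02 (adjusted p = 0.982). Rpl10 had 8.97, 14.8 and 10.8 (0.02, -0.59 to 0.62). Utp14a had 71.8, 57.2 and 66.9 (0.02, -0.35 to 0.38) and Cstf2 had 458.4, 350.1 and 422.1 (-0.16, -0.41 to 0.08). All 4 overlapped with the untreated PD libraries. Of the 10 other parents, 3 of the 4 that could be tested rose with oxamate: Prps1 from 70.9 to 116.2 normalized counts (adjusted p = 0.00843), Ddx3x from 29.0 to 47.1 (adjusted p = 0.021) and Rbmx from 17.98 to 31.27 (adjusted p = 0.0127). Zrsr2, at 4.51 and 14.1 without overlap, was below the minimum for a test. Of 308 tested X-linked genes 13.3% were higher with oxamate and 1 was lower. The difference between these parents and the 5 examined here was not tested.

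The copies under oxamate were close to untreated PD cells. Pdha2 had 4966, 4496 and 3720 normalized counts (log2 difference -0.12, 95% interval -0.51 to 0.27), Rpl10l 3439, 3336 and 3020 (-0.13, -0.55 to 0.30) and Cstf2t 1164, 1150 and 1190 (0.03, -0.20 to 0.25). Cetn1 had 9850, 9113 and 8729 (-0.04, -1.68 to 1.60), with an interval set by the spread of its few LZ reads. These 4 copies overlapped with the untreated group. Utp14b had 783.2, 806.7 and 812.7, each below all 3 untreated libraries (817.7, 967.4 and 1055), by a narrow margin for library A. Its log2 difference was -0.23 (SE 0.09, adjusted p = 0.15). The codes A, B and C paired the PD libraries, and with the replicate block and only the PD libraries fitted, Utp14b was called at -0.25 (adjusted p = 0.00537) and Rpl10l at -0.14 (adjusted p = 0.0259). That fit called 3018 genes higher and 2486 lower of 16401 tested. Utp14b was also called with total-count scaling (-0.31, adjusted p = 0.0425) and without untreated PD library A (-0.32, adjusted p = 0.0409). The authors' deposited table lists -0.27 with an adjusted p of 0.0663. Acsl3, which shares bases with it, had 729.7 normalized counts with oxamate against 772.3 and was not called (adjusted p = 0.766). The change of Utp14b with oxamate minus that with octyl-L2HG was -0.44 (SE 0.13, adjusted p = 0.105), and -0.46 (adjusted p = 0.0487) without untreated PD library A.

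**Figure D4:**
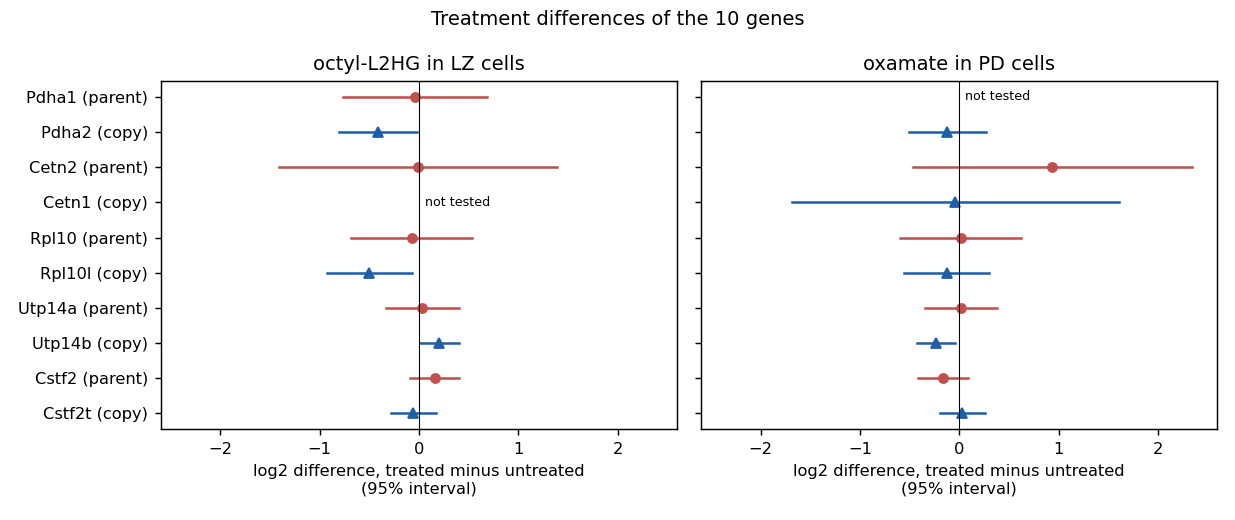
Log2 difference between treated and untreated libraries with 95% intervals for octyl-L2HG in LZ cells (left) and oxamate in PD cells (right), for parents (red circles) and copies (blue triangles). No member passed the adjusted threshold in the fit plotted, of all 12 libraries without the replicate block, and the intervals of Pdha2, Rpl10l and Utp14b on the left and of Utp14b on the right end short of 0.

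Across the 10 treatment comparisons of the copy-to-parent ratio, the groups overlapped in all but the Utp14 pair with octyl-L2HG. Of all arrangements of 3 against 3 libraries, a share of 0.1 separates in this way, so 1 of 10 is no more than that share. Among the 10 other pairs, Zrsr2-Zrsr1 also separated with octyl-L2HG. The pairs of Prps1, Ddx3x, Rbmx and Zrsr2 did so with oxamate. The share of the copy per kilobase with octyl-L2HG was 93.6% to 93.8% in the Pdha pair, beside 93.6% to 96.9% untreated, and 70.6% to 71.1% in the Utp14 pair, beside 67.8% to 68.9% untreated without overlap. The Utp14 sum per kb was 376.9 against 338.5 with octyl-L2HG and 120.1 against 139.2 with oxamate, without overlap in either (exact permutation p = 0.1, adjusted p = 0.214). Of the genes that work with the pairs none was called with octyl-L2HG, beside 0.307% of all genes tested. The calls with oxamate were 1 of 11 tested genes in the pyruvate dehydrogenase list, 1 of 20 in the processome and 2 of 17 in cleavage and polyadenylation. The centrin and 60S lists each gave 0 of 8, and over all genes tested the share called was 7.79%. With oxamate, the pyruvate carrier gene Mpc1 (1.27-fold, adjusted p = 0.0377), the processome gene Dhx37 (1.30-fold, adjusted p = 0.0279), and Cpsf6 and the poly(A) polymerase gene Papola for cleavage and polyadenylation (1.47-fold, adjusted p = 0.00103, and 1.28-fold, adjusted p = 0.0268) rose.

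The genes most like each member over the 12 libraries were sought among 12787 others by the root mean square distance of log2 values around the gene's own mean. Pdha2 lay closest to Sephs2 (0.062) and Ubb (0.0718), and Rpl10l to Hoxd8 (0.0982) and again Sephs2 (0.164). Utp14b lay closest to Nvl (0.0758), another ribosome maturation gene, and Tecpr2 (0.0874), and Cstf2t to Jazf1 (0.0624) and Atp6v1d (0.077). Cetn1 had more distant neighbours, Slco6c1 (0.279) and Mroh2b (0.329). For the parents they were Ppp1r3c and Llgl2 for Pdha1, Cldn7 and Vdac1 for Cetn2, Enox2 and Pdcl3 for Rpl10, Spg20 and Ubp1 for Utp14a, and Ice1 and Cdk2ap1 for Cstf2, at distances from 0.109 to 0.401. Enox2 was the single X-linked gene among them.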

How the data were processed

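RNA was isolated with a Qiagen kit and sequenced from libraries made by poly(A) capture with a stranded mRNA kit, per the labels' protocols. The submitters' processing notes name the mouse build GRCm38, TopHat2 2.1.1 and, for counts and tests, HTSeq 0.6.0 with DESeq2 1.22.2. The authors deposited a table of whole-number counts per gene for the 12 libraries, unscaled, beside their own log2 fold changes, standard errors and adjusted p-values, and 12 per-sample columns of normalized values were not used here. In 6255 of the 55471 rows the deposited counts are question marks, so no count model was run here and limma on a log scale was used.

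Counts were scaled by trimmed mean of M values, and limma 3.58.1 (R 4.3.3, trend and robust) was fitted to log2(normalized count + 1) of 17011 genes over all 12 libraries with 4 group means, two-sided, with Benjamini-Hochberg adjustment over all genes whose mean normalized count was at least 10 over the libraries of both groups compared together (at each stage for the test between treatments). A fold change on this scale understates the change of low genes. The script was tested on simulated data. Copy-to-parent ratios were compared by two-sided exact permutation tests (scipy 1.17.1). Levels were divided by the length of the union of annotated exons where genes were compared. That union can be longer than the transcripts in the cells, so shares and sums per kilobase depend on it. Sequences came from GENCODE transcripts and RefSeq promoters, and 9 of the 10 members matched a promoter. Protein sequences were not used here.

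The column names give the group and a code, not the replicate number of the labels. The deviations of libraries with the same code correlated at 0.357, 0.229 and 0.292 between the PD groups, so the codes were taken as pairs there. They correlated at 0.0482, 0.145 and 0.0646 between the LZ groups and at 0.0333, 0.0351 and 0.104 between the untreated stages. The members, the lists of genes and the markers were chosen with earlier results of these data known. Named genes were the 10 members, genes that overlap them, list genes called with a treatment and at most 4 per list with the largest stage change, and 2 nearest genes per member. Counting intervals cover counting error only. Alternatives tried were scaling, pseudocount, filter, weights, the libraries fitted, the replicate block and leaving out each library.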

Additional observations from a re-analysis of the deposited data

How the results depend on the processing

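The stage calls held under every alternative tried (15 per member) for all members but Cstf2t, whose rise was lost with total-count scaling. The counts of 5 parents lower, 4 copies higher and 1 copy lower otherwise stayed within 1.5 times, and leaving out single libraries moved the stage ratios by less than a replicate SD. The pseudocount moved the ratios that rest on few reads: the Pdha difference was 9.15 with 0.5 and 6.27 with 5, and the Cetn difference 16.24 with 5.

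The counts over all genes depended more on the settings. With octyl-L2HG 36 genes were higher and 4 lower in the fit reported; 22 and 8 with total-count scaling, 22 and 0 with voom weights, 15 and 2 with only the LZ libraries, and 14 lower without a filter. Leaving out 1 library gave 17 to 62 higher and 1 to 10 lower. With oxamate 934 were higher and 252 lower; the lower count was 385 with total-count scaling, 583 with a pseudocount of 5, 468 with voom weights, 812 with only the PD libraries, and 107 to 203 without 1 library. The causes were not tested.

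With the replicate block over all 12 libraries 0 members were called with either treatment, and 1230 genes were higher and 309 lower with oxamate. With the block and only the libraries compared, an alternative chosen after seeing the data, 224 genes of 13715 tested were higher and 232 lower with octyl-L2HG, and 3018 of 16401 were higher and 2486 lower with oxamate. This fit called 2 members with octyl-L2HG (Rpl10l at -0.56, adjusted p = 0.00512, and Pdha2 at -0.47, adjusted p = 0.0112) and 2 with oxamate. Between the LZ groups libraries of the same code correlated weakly (0.0482, 0.145 and 0.0646), so the pairing there is uncertain. The replicate block changed no other call of a member. With oxamate 1 member, Utp14b, was called under total-count scaling, and leaving out single libraries gave 0 to 1, likewise 0 to 1 in the test between treatments.

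Total-count scaling, an alternative for the pair sums that was chosen after seeing the data, turned the log2 stage difference of the Rpl10 sum from 0.46 to -0.0088, and the other 4 sums kept their direction. Uncalled differences near 0 changed sign. With octyl-L2HG Utp14a gave -0.043 with total-count scaling, -0.0014 with median-of-ratios scaling and -0.025 with only the LZ libraries, with or without the block. With oxamate Rpl10 gave -0.051 and -0.010 under these scalings, -0.0080 with a pseudocount of 5, -0.018 with voom weights and -0.00078 with only the PD libraries, with or without the block. Utp14a gave -0.053, -0.011 and -4.5e-05 in the same order of scalings and libraries, and Cstf2t -0.043 with total-count scaling. Without single libraries the ranges with octyl-L2HG were -0.13 to 0.046 for Pdha1, -0.13 to 0.14 for Cetn2 and -0.16 to 0.056 for Cstf2t. With oxamate they were -0.24 to 0.026 for Pdha2, -0.024 to 1.28 for Cetn2, -0.11 to 0.029 for Cetn1, -0.39 to 0.31 for Rpl10, -0.19 to 0.18 for Utp14a and -0.0030 to 0.073 for Cstf2t. Between treatments they were -0.25 to 0.45 for Rpl10, -0.15 to 0.21 for Utp14a and -0.028 to 0.20 for Cstf2t. Depth limits what can be said of Pdha1, Cetn2 and Rpl10 in PD and of Cetn1 in LZ, which rest on 0 to 21 reads per library.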
